A study of Mus musculus with 4 samples.

Results

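The 9 genes described here encode surface receptors and an enzyme that phagocytes use to bind and destroy coated particles. They are the Fc gamma receptor genes Fcgr1, Fcgr2b, Fcgr3 and Fcgr4, the beta-2 integrin chains Itgam, Itgax and Itgb2, and the NADPH oxidase subunits Cybb and Ncf1. Members were taken by exact gene symbol, and all 9 were found among the 41079 genes of the count table. Lung RNA was sequenced as 4 libraries, 1 per group, from WT and Rab44-KO mice that were normal or OVA-induced (OVA WT and OVA Rab44-KO below). The mice were female littermates of 8 to 14 weeks on a C57BL/6 background, and the Rab44-KO mice carried a CRISPR/Cas9-made deficiency of Rab44, a large Rab GTPase. OVA-induced mice were sensitized intraperitoneally with 100 μg of ovalbumin (OVA) and alum on days 0, 7 and 14. They then received 100 μg of OVA in 50 μL intranasally on each of days 17 to 20, and their lungs were taken on day 21. The normal mice are labelled as having no treatment, although the protocol text they carry also names a PBS challenge. The number of mice behind a library, and whether lungs were lavaged before RNA was taken, are not given in the sources used here.

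An Fc gamma receptor binds the constant part of IgG and so links antibody to phagocytosis. In mice the products of Fcgr1, Fcgr3 and Fcgr4 are activating and signal through the common gamma chain encoded by Fcer1g, whereas the product of Fcgr2b is inhibitory and recruits phosphatases. Itgam (CD11b) and Itgax (CD11c) encode alpha chains that each pair with the shared beta chain Itgb2 (CD18) to bind complement fragments and adhesion molecules. CD11b is typical of neutrophils, monocytes and eosinophils, and CD11c of alveolar macrophages and dendritic cells in the mouse lung. Cybb encodes the catalytic chain of the phagocyte oxidase, which makes superoxide, and Ncf1 encodes the cytosolic organizer that activates it.

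Library totals ranged from 18112901 to 19910236 counts. Levels below are CPM, the counts of a gene relative to the total of its library, after scaling of the library totals by edgeR's trimmed mean of M-values (TMM). Differences are log2 fold changes (log2FC) of CPM for genes that reached at least 10 counts in 1 of the libraries compared, and over 2-fold means an absolute log2FC above 1. With 1 library per group no difference has a replicate check, no p-value was computed, and each comparison is between libraries rather than conditions. Ranges in brackets are exact 95% intervals of the counts, Poisson for a level and Clopper-Pearson for a ratio, and they cover counting error only. Rab44 had 251 (normal WT), 1 (normal Rab44-KO), 810 (OVA WT) and 0 (OVA Rab44-KO) counts, so the libraries matched their labels at the targeted gene.

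In GRCm38 with GENCODE M21 genes, Fcgr2b (chr1:170958617-170976547), Fcgr4 (chr1:171018920-171029761) and Fcgr3 (chr1:171051174-171064935) lie within the same stretch of chromosome 1, and Fcgr1 lies elsewhere (chr3:96282909-96293969). Itgam (chr7:128062640-128118491) and Itgax (chr7:128129547-128150657) are close to each other too, while Itgb2 (chr10:77530252-77565708), Cybb (chrX:9435252-9487771) and Ncf1 (chr5:134220053-134229625) lie on other chromosomes. The promoters were searched on both strands for GAGGAA, the core letters bound by the myeloid factor PU.1, which read TTCCTC on the other strand. Of the 8 members with a RefSeq promoter entry for GRCm38.p6, 5 held it, against 28.31% of all 27025 promoter windows, each reaching from 250 bases before to 50 after a gene start. Itgb2 had no entry. The 30 bases around each match are shown in the direction of the gene, with the matched letters in capitals, because these sequences are what the matching members have in common. The windows of Fcgr3 and Cybb belong to RefSeq starts inside the GENCODE gene.
Fcgr1, chr3:96294007-96294036, minus strand: atggcaacttccTTCCTCttttctaatctt
Fcgr3, chr1:171059392-171059421, minus strand: gagtccatttccTTCCTCtttttgtagttc
Fcgr4, chr1:171018892-171018921, plus strand: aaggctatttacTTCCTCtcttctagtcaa
Itgam, chr7:128062544-128062573, plus strand: tgttttctcccgGAGGAAggctacagaggg
Itgam, chr7:128062613-128062642, plus strand: tctcatagctttTTCCTCatacttctctgt
Itgam, chr7:128062660-128062689, plus strand: ggccttggtggcTTCCTCaaagtgtctgtg
Cybb, chrX:9469298-9469327, minus strand: tgctgttttcatTTCCTCatcagaagaaga

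The promoters of Fcgr2b, Itgax and Ncf1 did not hold these letters. The match starts 55 bases before the gene start in Fcgr1, 6 before in Fcgr3 and 22 before in Fcgr4, and 9 after it in Cybb. Itgam was the member with most matches, at 84 and 15 bases before and 32 bases after its start. A match describes the letters only, and binding was not measured.

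To ask how OVA induction and Rab44 deficiency changed these genes, each was followed through the 4 libraries. All 9 were higher after OVA induction in WT lungs, 8 of them over 2-fold, where 8.99% of all genes tested were. In Rab44-KO lungs the same comparison put 3 of the 9, Fcgr1, Fcgr4 and Itgam, over 2-fold, where 6.44% of all genes were. Between the OVA-induced libraries, Itgax, Fcgr2b and Fcgr3 were over 2-fold lower in Rab44-KO, as were 7.34% of all genes. Itgb2, Cybb and Ncf1 were lower by less than 2-fold, and Itgam, Fcgr1 and Fcgr4 were close to the WT level. The summed counts of the 9 genes were 6216 for normal WT, 6318 for normal Rab44-KO, 20464 for OVA WT and 11468 for OVA Rab44-KO lungs. In whole lung tissue, fewer cells of a type and less RNA per cell cannot be told apart.

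**Figure D1:**
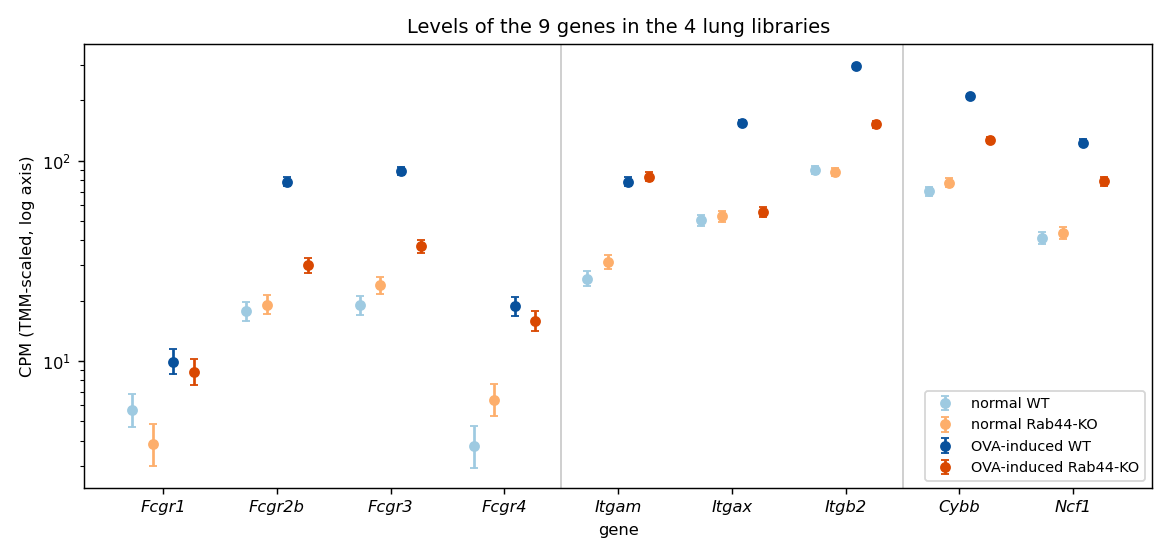
Levels of the 9 genes in each lung library as TMM-scaled CPM on a log axis. Each point is 1 library, bars are exact 95% Poisson intervals of the count, and vertical lines separate Fc gamma receptors, integrins and oxidase subunits. Itgax in the OVA Rab44-KO library (55.3 CPM) lies beside its 2 normal libraries, while Itgam there (83.4 CPM) lies beside OVA WT (78.5 CPM).

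Among the activating receptors, Fcgr3, the low-affinity IgG receptor of most myeloid cells, had 364 (normal WT), 435 (normal Rab44-KO), 1715 (OVA WT) and 729 (OVA Rab44-KO) counts. These counts correspond to 19.0 CPM (17.1 to 21.0), 23.8 CPM (21.6 to 26.2), 88.6 CPM (84.4 to 92.8) and 37.4 CPM (34.7 to 40.2). The OVA WT library stood above the other 3, and the OVA Rab44-KO library was above both normal ones. The log2FC of OVA-induced over normal was 2.22 (2.06 to 2.39) in WT and 0.65 (0.48 to 0.82) in Rab44-KO lungs. Under OVA-induced conditions Fcgr3 was 2.37-fold lower in Rab44-KO than in WT, a log2FC of -1.24 (-1.37 to -1.12). With the deposited length-scaled values (TPM) it was -0.91, within 2-fold. Under normal conditions Fcgr3 was higher in Rab44-KO, at 0.33 (0.13 to 0.54).

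Fcgr4, an activating receptor found on neutrophils, monocytes and macrophages, had 72, 117, 363 and 308 counts in normal WT, normal Rab44-KO, OVA WT and OVA Rab44-KO lungs. Its levels were 3.75 CPM (2.93 to 4.72), 6.41 CPM (5.30 to 7.68), 18.7 CPM (16.9 to 20.8) and 15.8 CPM (14.1 to 17.7) in the same order. Both OVA-induced libraries were above both normal ones, and their counting intervals overlapped. OVA over normal lungs gave a log2FC of 2.32 (1.95 to 2.71) in WT and 1.30 (0.99 to 1.62) in Rab44-KO lungs. In normal lungs Rab44-KO over WT gave 0.77 (0.34 to 1.22). In OVA-induced lungs it was -0.25 (-0.47 to -0.02), which turned to 0.08 with TPM and to 0.20 with the trend along transcript length removed. Relative to the median of all genes, which TPM moved too, it was -0.22 with CPM and -0.21 with TPM.

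Fcgr1, the high-affinity IgG receptor of monocytes and macrophages, was the lowest member per transcript length in every library. It had 109 (normal WT), 70 (normal Rab44-KO), 192 (OVA WT) and 172 (OVA Rab44-KO) counts, or 5.68 CPM (4.66 to 6.85), 3.84 CPM (2.99 to 4.85), 9.91 CPM (8.56 to 11.4) and 8.82 CPM (7.55 to 10.2). Both OVA-induced libraries were above both normal ones. The OVA response, as log2FC, was 0.80 (0.46 to 1.16) in WT and 1.20 (0.79 to 1.62) in Rab44-KO lungs. The Rab44-KO value was thus the larger, which held for no other member with CPM. With TPM it also held for Itgam (1.42 in WT and 1.54 in Rab44-KO), but that scale moved the median of all genes too. Relative to that median, Itgam with TPM was 1.59 in WT and 1.42 in Rab44-KO lungs. Rab44-KO over WT gave a log2FC of -0.56 (-1.02 to -0.12) in normal lungs. It was -0.17 (-0.47 to 0.14) in OVA-induced lungs, an interval that includes 0. The sign turned to positive with TPM (0.16) and with the length trend removed (0.07). Relative to the median of all genes it was -0.14 with CPM and also with TPM.

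Fcgr2b, the inhibitory receptor, is carried by B cells as well as by myeloid cells. It had 341 (normal WT), 349 (normal Rab44-KO), 1519 (OVA WT) and 585 (OVA Rab44-KO) counts. The levels were 17.8 CPM (15.9 to 19.7), 19.1 CPM (17.2 to 21.2), 78.4 CPM (74.5 to 82.5) and 30.0 CPM (27.6 to 32.5). The normal libraries overlapped in their counting intervals, and the OVA WT library stood above the OVA Rab44-KO library. As log2FC, OVA over normal lungs gave 2.14 (1.97 to 2.32) in WT and 0.65 (0.46 to 0.85) in Rab44-KO lungs. Under OVA-induced conditions Fcgr2b was 2.61-fold lower in Rab44-KO, a log2FC of -1.39 (-1.53 to -1.25), and under normal conditions the log2FC was 0.11 (-0.11 to 0.33).

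Ratios of genes within a library do not depend on how libraries are scaled. The summed TPM of the 3 activating receptors over that of Fcgr2b was 2.42 (2.10 to 2.78) in normal WT, 2.84 (2.48 to 3.25) for normal Rab44-KO, 2.29 (2.14 to 2.45) in OVA WT and 3.55 (3.21 to 3.93) in OVA Rab44-KO lungs. The OVA Rab44-KO value was above that of either WT library beyond the counting intervals, and its interval overlapped narrowly with that of normal Rab44-KO. Fcgr4 over Fcgr2b was 0.640 (0.490 to 0.828) and 1.02 (0.817 to 1.26) in normal WT and Rab44-KO, and 0.725 (0.645 to 0.813) and 1.60 (1.39 to 1.84) in OVA WT and Rab44-KO lungs. Fcgr1 over Fcgr2b was 0.468 (0.374 to 0.582) in normal WT, 0.294 (0.224 to 0.381) for normal Rab44-KO, 0.185 (0.158 to 0.215) in OVA WT and 0.431 (0.361 to 0.511) in OVA Rab44-KO lungs. For Fcgr1 the OVA WT library was thus the lowest, and the interval of OVA Rab44-KO overlapped those of both normal libraries. Fcgr3 over Fcgr2b, by contrast, ranged only from 1.31 in normal WT to 1.53 in both Rab44-KO libraries, so Fcgr3 and Fcgr2b moved nearly in step. Transcripts of Fcgr2b and Fcgr3 share 44 windows of 100 bases, which are 2.54% of those of Fcgr3, and how reads from such stretches were counted is not given in the sources used here.

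Of the integrin chains, Itgam had 495 (normal WT), 570 (normal Rab44-KO), 1520 (OVA WT) and 1626 (OVA Rab44-KO) counts. These were 25.8 CPM (23.6 to 28.2), 31.2 CPM (28.7 to 33.9), 78.5 CPM (74.6 to 82.5) and 83.4 CPM (79.4 to 87.6). Both OVA-induced libraries were above both normal ones, and the intervals of the OVA-induced pair overlapped. The log2FC of OVA-induced over normal was 1.61 (1.46 to 1.76) in WT and 1.42 (1.28 to 1.56) in Rab44-KO lungs. Rab44-KO over WT gave a log2FC of 0.28 (0.10 to 0.45) in normal lungs and 0.09 (-0.01 to 0.19) in OVA-induced lungs, where it was 0.41 with TPM and -0.003 with the length trend removed. A GENCODE locus, Gm49368, overlaps Itgam and shares 64.3% of its 100-base windows, and it was not analysed here.

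Itgax, the other alpha chain, had 970 (normal WT), 961 (normal Rab44-KO), 2987 (OVA WT) and 1079 (OVA Rab44-KO) counts. Its levels were 50.5 CPM (47.4 to 53.8), 52.7 CPM (49.4 to 56.1), 154 CPM (149 to 160) and 55.3 CPM (52.1 to 58.7). The OVA WT library stood alone, and the intervals of the OVA Rab44-KO and both normal libraries overlapped. OVA over normal lungs gave a log2FC of 1.61 (1.51 to 1.72) in WT, as for Itgam, but 0.07 (-0.05 to 0.20) in Rab44-KO lungs, or 0.20 with TPM. Itgax was 2.79-fold lower in Rab44-KO than in WT under OVA-induced conditions, a log2FC of -1.48 (-1.58 to -1.38), the largest difference among the 9 members, although its interval overlapped that of Fcgr2b. In normal lungs the log2FC was 0.06 (-0.07 to 0.19).

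Itgb2, the shared beta chain, was the highest of the 9 genes per transcript length in each library. It had 1728 (normal WT), 1605 (normal Rab44-KO), 5728 (OVA WT) and 2958 (OVA Rab44-KO) counts, or 90.0 CPM (85.8 to 94.3), 87.9 CPM (83.7 to 92.4), 296 CPM (288 to 304) and 152 CPM (146 to 157). The normal pair overlapped, and the OVA Rab44-KO library lay between them and OVA WT. The OVA response, as log2FC, was 1.72 (1.64 to 1.79) in WT and 0.79 (0.70 to 0.88) in Rab44-KO lungs. Rab44-KO over WT gave a log2FC of -0.03 (-0.13 to 0.07) in normal and -0.96 (-1.03 to -0.90) in OVA-induced lungs, just inside the 2-fold limit, and -0.64 with TPM in the latter.

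The ratio of Itgam to Itgax in TPM was 0.487 (0.436 to 0.543) in normal WT, 0.566 (0.510 to 0.629) for normal Rab44-KO and 0.486 (0.456 to 0.517) in OVA WT lungs. In OVA Rab44-KO lungs it was 1.44 (1.33 to 1.56), so Itgam was above Itgax in that library alone. The 4 alpha chains that pair with Itgb2 (Itgam, Itgax, Itgal and Itgad), summed and divided by Itgb2, gave 0.900 (0.847 to 0.957) in normal WT, 0.981 (0.922 to 1.04) for normal Rab44-KO, 0.711 (0.686 to 0.736) in OVA WT and 1.01 (0.967 to 1.06) in OVA Rab44-KO lungs. The OVA WT library was thus the one with the least alpha chain RNA per beta chain RNA.

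**Figure D2:**
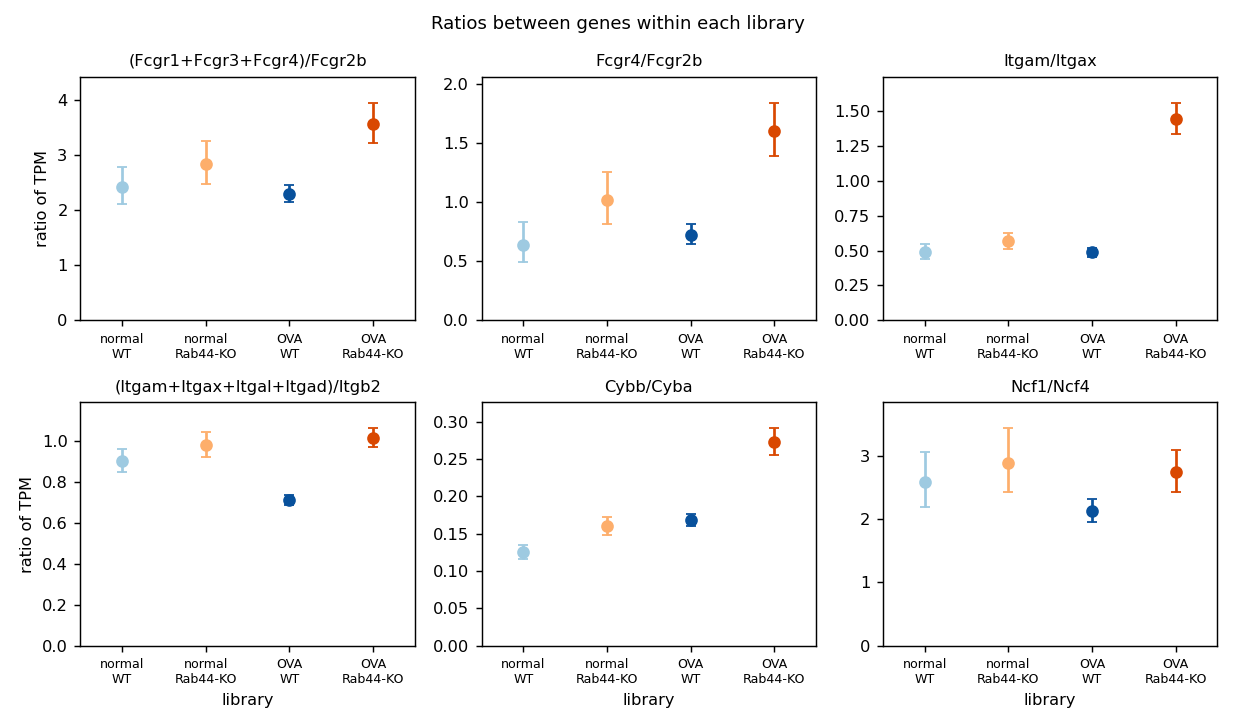
Ratios of TPM between genes of the same library for 6 pairs or sums, with 95% counting intervals. The OVA Rab44-KO library has the highest value in each panel except Ncf1 over Ncf4, with Itgam over Itgax at 1.44 against 0.486 to 0.566 in the other 3 libraries. Its interval overlaps that of the next library for the activating receptors over Fcgr2b and the alpha chains over Itgb2, and for Ncf1 over Ncf4 it overlaps those of both normal libraries.

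For the oxidase, Cybb had 1350 (normal WT), 1417 (normal Rab44-KO), 4057 (OVA WT) and 2475 (OVA Rab44-KO) counts. This was 70.3 CPM (66.6 to 74.2), 77.6 CPM (73.7 to 81.8), 209 CPM (203 to 216) and 127 CPM (122 to 132). The OVA Rab44-KO library lay between the normal libraries and OVA WT. As log2FC, OVA over normal lungs gave 1.57 (1.49 to 1.66) in WT and 0.71 (0.61 to 0.80) in Rab44-KO lungs. Rab44-KO over WT gave a log2FC of 0.14 (0.03 to 0.25) in normal and -0.72 (-0.80 to -0.65) in OVA-induced lungs, or -0.40 with TPM.

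Ncf1, the organizer subunit, had 787 (normal WT), 794 (normal Rab44-KO), 2383 (OVA WT) and 1536 (OVA Rab44-KO) counts. The levels were 40.99 CPM (38.17 to 43.96), 43.5 CPM (40.5 to 46.6), 123 CPM (118 to 128) and 78.8 CPM (74.9 to 82.8), with the same order of libraries as Cybb. The log2FC of OVA-induced over normal was 1.59 (1.47 to 1.70) in WT and 0.86 (0.73 to 0.98) in Rab44-KO lungs. Rab44-KO over WT gave a log2FC of 0.09 (-0.06 to 0.23) in normal and -0.64 (-0.74 to -0.55) in OVA-induced lungs, where it was -0.32 with TPM and -0.42 with the length trend removed.

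The remaining subunits of the complex did not all follow Cybb and Ncf1. Cyba, the membrane partner that stabilizes Cybb, had 1707, 1404, 3815 and 1437 counts in normal WT, normal Rab44-KO, OVA WT and OVA Rab44-KO lungs, and its log2FC of Rab44-KO over WT in OVA-induced lungs was -1.42 (-1.51 to -1.33). Cybb over Cyba in TPM was 0.13 (0.116 to 0.134) in normal WT, 0.160 (0.148 to 0.172) for normal Rab44-KO, 0.168 (0.161 to 0.176) in OVA WT and 0.272 (0.255 to 0.291) in OVA Rab44-KO lungs. The last was above the other 3 beyond the counting intervals. The cytosolic partner Ncf4 had a log2FC of -1.01 (-1.20 to -0.82) in the same comparison. Ncf1 over Ncf4 was 2.58 (2.20 to 3.06) in normal WT, 2.88 (2.43 to 3.43) for normal Rab44-KO, 2.12 (1.95 to 2.32) in OVA WT and 2.73 (2.43 to 3.09) in OVA Rab44-KO lungs. The OVA-induced pair did not overlap in their counting intervals. Ncf1 shares 4.07% of its 100-base windows with Gtf2ird2.

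Taking the comparisons in turn, 8 of the 9 members were over 2-fold higher after OVA induction in WT lungs, where 8.99% of the 19023 genes tested were. The member outside the limit was Fcgr1. The median log2FC of the 9 was 1.61, against 0.0037 over all genes tested. By family the median was 2.18 for the Fc gamma receptors, 1.61 for the integrins and 1.58 for the oxidase subunits. Fcgr1 (0.80), however, was the lowest of the 9. In Rab44-KO lungs 3 of 9 were over 2-fold higher, where 6.44% of 19073 genes were, and the median of the 9 was 0.79 against -0.0083 over all genes. The interval of Itgax included 0 in that comparison and those of the other 8 did not.

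Between genotypes under normal conditions 0 of 9 members were beyond 2-fold in either direction, where 4.77% of 18718 genes were, and no test was run. The median log2FC of Rab44-KO over WT was 0.11, with 7 members above and 2 below 0. Under OVA-induced conditions 3 of 9 were lower by over 2-fold, where 7.34% of 19259 genes were, and 0 of 9 were higher by over 2-fold, where 8.4% were. The median of the 9 was -0.72, against -0.02 over all genes, and 8 of 9 were below 0. On the TPM scale Fcgr3 (-0.91) was within 2-fold, and 6 of 9 were below 0. That scale moved the median of all genes in this comparison by 0.33. Relative to the median of all genes, the median of the 9 was -0.70 with CPM and -0.69 with TPM. Over all genes the split of calls was 1617 higher and 1413 lower with CPM, and 2602 higher and 777 lower with TPM.

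**Figure D3:**
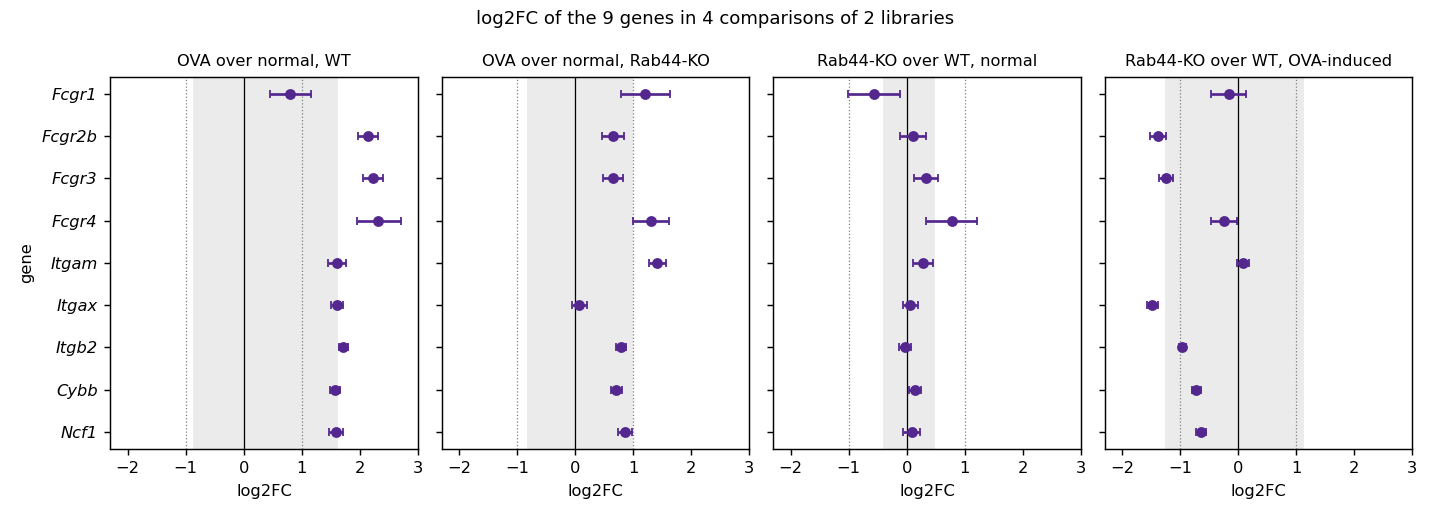
The log2FC of each gene in the 4 comparisons of 2 libraries, with exact 95% counting intervals. Grey bands hold the central 95% of genes that reached at least 100 counts, and dotted lines mark 2-fold. In the right panel Itgax (-1.48) and Fcgr2b (-1.39) lie outside the band, and Fcgr1, Fcgr4 and Itgam lie near 0. With TPM, which moves the median of all genes by 0.33, Fcgr1 and Fcgr4 turn positive (0.16 and 0.08) and Itgam rises to 0.41. With the length trend removed Itgam is at -0.003.

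The difference in OVA response, the log2FC in Rab44-KO minus that in WT lungs, was below 0 for 8 of the 9, where 52.2% of 19744 genes were, and below -1 for 4, where 9.14% were. These 4 were Fcgr3 at -1.57 (-1.81 to -1.34), Itgax at -1.54 (-1.70 to -1.37), Fcgr2b at -1.49 (-1.75 to -1.24) and Fcgr4 at -1.02 (-1.496 to -0.54). Fcgr4 was at -0.71 with TPM and -0.70 with the length trend removed, which left 3 below -1, as did scaling by total counts. Itgb2 at -0.93 (-1.05 to -0.81), Cybb at -0.87 (-0.995 to -0.74) and Ncf1 at -0.73 (-0.90 to -0.56) formed a middle group, and with TPM these were -0.63, -0.56 and -0.43. The intervals of Itgam, -0.19 (-0.39 to 0.01), and Fcgr1, 0.40 (-0.13 to 0.92), included 0. With TPM the differences were 0.11 and 0.68, which left 7 of the 9 below 0. Relative to the median of all genes, which TPM moved in both genotypes, the Itgam response with TPM was 1.59 in WT and 1.42 in Rab44-KO lungs. In CPM, the increase from normal to OVA-induced in Rab44-KO lungs was 2.59% of that in WT for Itgax, 17.9% for Fcgr2b and 19.5% for Fcgr3. It was 31.0% for Itgb2, 35.4% for Cybb, 43.0% for Ncf1 and 62.6% for Fcgr4. For Itgam it was 98.99% and for Fcgr1 118%.

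**Figure D4:**
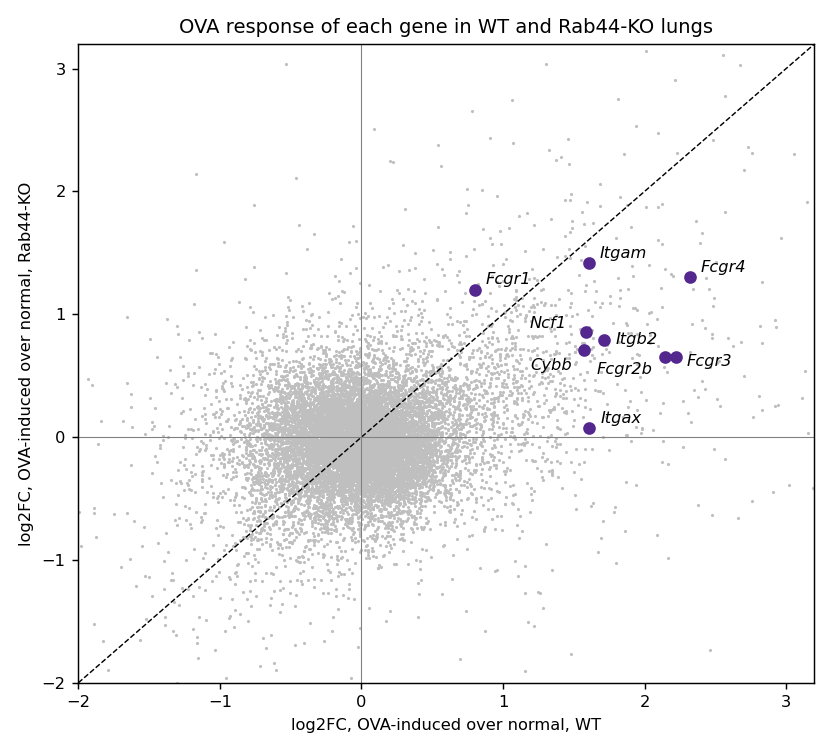
The log2FC of OVA-induced over normal in WT (x axis) against that in Rab44-KO lungs (y axis). Purple points are the 9 genes, grey points are genes with at least 100 counts in their highest library, the dashed line marks equal responses, and genes beyond the axis limits are not drawn. Fcgr1 lies above the dashed line, Itgam (1.61 and 1.42) lies close to it, and Itgax (1.61 and 0.07) lies farthest down.

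Per transcript length, Itgb2 had the highest TPM of the 9 in each library, from 71.6 in normal Rab44-KO to 209 in OVA WT lungs. In normal WT, normal Rab44-KO and OVA WT lungs it was followed by Cybb, Ncf1 and Itgax. Cybb and Ncf1 overlapped in their counting intervals in each library. In OVA Rab44-KO lungs Itgam moved to the place after this pair with 47.0 TPM (44.8 to 49.4). Fcgr4, with 33.4 TPM (29.8 to 37.3), came next there, and its interval overlapped those of Itgax, 32.7 (30.8 to 34.7), and Fcgr3, 31.9 (29.6 to 34.3). In OVA WT lungs these 3 were well separated, with Itgax at 72.7, Fcgr3 at 60.2 and Fcgr4 at 31.6 TPM. Fcgr1 was the lowest of the 9 throughout, from 3.59 to 9.0 TPM.

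Most other Fc receptors and partners were lower in OVA Rab44-KO than in OVA WT lungs. Of 11 listed genes 10 were analysed, and 3 were over 2-fold lower and 0 higher, where 7.34% and 8.4% of all genes were. The median log2FC was -0.71, or -0.37 with TPM and -0.46 with the length trend removed. The over 2-fold lower genes were Pigr, the epithelial carrier of IgA and IgM, at -1.78, Fcer1a, the IgE-binding chain, and Fcer1g. Fcer1a had 14 and 5 counts, and its interval (-3.32 to 0.06) included 0. Fcer1g, the gamma chain that the activating Fc gamma receptors need, had 464 (normal WT), 450 (normal Rab44-KO), 1398 (OVA WT) and 571 (OVA Rab44-KO) counts. Its log2FC of -1.30 (-1.44 to -1.16) was near that of Fcgr3 and not near that of Fcgr4 or Fcgr1. Fcer2a (-0.88), Ms4a2 (-0.71), Fcmr (-0.70), Fcgrt, the neonatal IgG carrier (-0.68), Fcrl1 (-0.42), Fcamr (-0.15) and Trim21 (-0.13) were within 2-fold. Fcrls was not analysed here. The count of 3 was 2 with TPM and 1 with the length trend removed.

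Downstream of the activating receptors, 10 of 13 signalling genes were over 2-fold higher after OVA induction in WT lungs, where 8.99% of all genes were, and 1 of 13 in Rab44-KO lungs, where 6.44% were. With TPM the count in WT lungs was 6, and with the length trend removed the count in Rab44-KO lungs was 0. Between the OVA-induced libraries 1 of 13 was over 2-fold lower, near the share of all genes, 7.34%. The median log2FC was -0.44, or -0.11 with TPM. The lower gene was Lat2, an adaptor, at -1.35 (-1.57 to -1.13), followed by Btk, a kinase best known from B cells, at -0.96 and Vav1, an exchange factor for Rac GTPases, at -0.71. Of 8 inhibitory phosphatases and adaptors, the kind of protein that Fcgr2b recruits or resembles, 1 was over 2-fold lower in the same comparison, and the median was -0.58, or -0.25 with TPM. Dok2, an adaptor, was at -1.45, Ptpn6, the phosphatase SHP-1, at -0.67 and Sirpa, an inhibitory receptor, at -0.65.

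The other integrin chains showed no common direction. Of 8, 1 was over 2-fold lower and 0 higher in OVA Rab44-KO than in OVA WT lungs, where 7.34% and 8.4% of all genes were. The counts were 0 lower and 1 higher with TPM, and 0 lower with total counts. The median log2FC was 0.12, or 0.44 with TPM and 0.03 with the length trend removed. Itgae, a mucosal lymphocyte and dendritic cell chain, was at -1.03 (-1.35 to -0.72) and Itgb7, its partner, at -0.77. Itga4, which lymphocytes and eosinophils use to bind VCAM-1, was higher in Rab44-KO at 0.75 (0.66 to 0.85). Itgal, the lymphocyte alpha chain of Itgb2, had 2022 and 2243 counts, a log2FC of 0.14 (0.05 to 0.23). Itgav was at 0.23, Itgb1 at 0.09 and Itga5 at 0.07, and Itgad had 11 and 17 counts. Of 7 integrin activators 6 were analysed and 0 were beyond 2-fold, and their median of -0.20 turned to 0.12 with TPM and 0.02 with the length trend removed. Fermt3, the hematopoietic kindlin, was at -0.72, Apbb1ip at -0.66 and Tln1, talin, at 0.42, while Fyb was not analysed here. Of 6 ligands of beta-2 integrins 0 were beyond 2-fold, and the 3 with the largest differences were Fn1 (-0.53), Jam3 (-0.46) and complement C3 (-0.43).

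Of 6 further oxidase subunits and regulators 2, Cyba and Ncf4, were over 2-fold lower in OVA Rab44-KO lungs, where 7.34% of all genes were. The median log2FC was -0.82, or -0.50 with TPM. The count of 2 was 1 with TPM or with total counts and 0 with the length trend removed. Hvcn1, the proton channel that balances oxidase charge, was at -0.86, Rac2, the hematopoietic GTPase of the complex, at -0.79 and Cybc1, needed for Cybb protein, at -0.62. Rac1, which most cells express, was at 0.01 (-0.03 to 0.06). Of the 9 genes of other NADPH oxidases 5 passed the count minimum, and 2 of them were over 2-fold lower (0 with TPM and 1 with the length trend removed). Noxo1 was at -1.27 with 324 and 135 counts and Noxa1, named after its value was seen, had 76 and 33, whereas Nox4, an oxidase of non-phagocytic cells, was higher in Rab44-KO at 0.87 (0.76 to 0.98).

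The libraries also differed in markers of the cells that carry these receptors. Of 12 neutrophil markers, 10 of the 10 with enough counts were over 2-fold higher after OVA induction in WT lungs, where 8.99% of all genes were. In Rab44-KO lungs 10 of 11 were, where 6.44% of all genes were. Ngp, Camp and Mpo passed the count minimum only through the OVA-induced library in both genotypes, as did Ly6g in Rab44-KO lungs. These genes could thus only come out as higher. The summed level of the 12 markers was 126 CPM in normal WT, 162 for normal Rab44-KO, 628 in OVA WT and 779 in OVA Rab44-KO lungs, so the last was the highest. Between the OVA-induced libraries the median log2FC was 0.41, with 1 of 11 over 2-fold higher and 0 lower, where 8.4% and 7.34% of all genes were. The higher gene was Ly6g, with 9 and 20 counts and an interval that included 0 (-0.06 to 2.46). The median was 0.74 with TPM, with 3 of 11 higher, and 0.65 with the length trend removed, with 2 of 11 higher. The counting interval lay above 0 for 6 of the 11 and below 0 for 2, Ltf and Retnlg. S100a9 was at 0.48, S100a8 at 0.41, Retnlg at -0.39 and Ltf at -0.79 (-0.96 to -0.63). Mpo (-0.79) and Camp (-0.45) were lower too, with intervals that included 0. In normal WT lungs 5 of the 12, Ly6g, Ngp, Camp, Mpo and Elane, had 0 counts, and Elane had at most 5 counts in any library. Itgam, Fcgr4 and Fcgr1 were close to the WT level in this comparison. The neutrophil markers went both ways in it, with a sum not lower than in WT. Monocyte and interstitial macrophage markers had a median log2FC of -1.04. The part of these cells in the values of Itgam, Fcgr4 and Fcgr1 was not tested.

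Other leukocyte markers were mostly lower in OVA Rab44-KO than in OVA WT lungs. Over all genes, 7.34% were over 2-fold lower in this comparison. Of 7 eosinophil markers with enough counts 6 were over 2-fold lower, with a median of -1.95 and a summed level of 126 CPM in OVA WT and 40.4 in OVA Rab44-KO, against 34.1 and 38.0 in normal WT and normal Rab44-KO lungs. Alox15 was at -2.32, Ccr3 at -2.39 and Siglecf at -1.23, while Epx, a defining eosinophil granule gene, had 0 or 1 counts in each library. Of 8 alveolar macrophage markers 3 were over 2-fold lower, with a median of -0.74 (-0.41 with TPM). The summed level of the 8 was 908 CPM in OVA WT and 402 in OVA Rab44-KO, against 496 and 472 in normal lungs. Fabp5 and Car4, the genes with most counts in OVA WT lungs, made up much of it. They had 278 and 192 CPM in OVA WT, and 38.8 and 118 CPM in OVA Rab44-KO. Of 8 dendritic cell markers 5 were over 2-fold lower, with a median of -1.08, but their summed level was 158 CPM in OVA WT and 148 in OVA Rab44-KO, against 126 and 140 in normal lungs. The 2 with most counts, Clec9a at 0.56 (0.41 to 0.71) and Zbtb46 at 0.77 (0.63 to 0.91), were higher in OVA Rab44-KO. With TPM the lower counts were 4 eosinophil, 2 alveolar macrophage and 2 dendritic cell markers, and with the length trend removed they were 6, 2 and 3. The alveolar macrophage and dendritic cell lists, but not the eosinophil list, describe cells for which CD11c is typical. Itgax was at -1.48, and the part of these cells in that value was not tested.

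Of 10 monocyte and interstitial macrophage markers 5 were over 2-fold lower, where 7.34% of all genes were, with a median of -1.04. Their summed level of 1346 and 1583 CPM in OVA WT and Rab44-KO, however, was carried by Ace, an endothelial gene as well, at 0.73. Of 8 general myeloid markers 5 were over 2-fold lower, with a median of -1.03. Lyz2, which made up most of their sum, was at -1.04. The summed level of these 8 was 5406, 6000, 11079 and 5459 CPM in normal WT, normal Rab44-KO, OVA WT and OVA Rab44-KO lungs. Of 6 B cell markers 1 was over 2-fold lower (median -0.57, or -0.24 with TPM), of 7 T cell markers 4 (median -1.01) and of 6 NK cell markers 2 (median -0.90, or -0.54 with TPM). With TPM the counts of over 2-fold lower genes were 4 for the monocyte and interstitial macrophage list, 1 for the general myeloid list, 0 for B cells, 0 for T cells and 1 for NK cells, and with the length trend removed they were 4, 1, 0, 0 and 0. With total counts the general myeloid list had 2. The 10 lung epithelium and endothelium markers had a median of -0.05, which turned to 0.28 with TPM and 0.20 with the length trend removed. The part of these cell types in the values of the 9 genes was not tested.

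**Figure D5:**
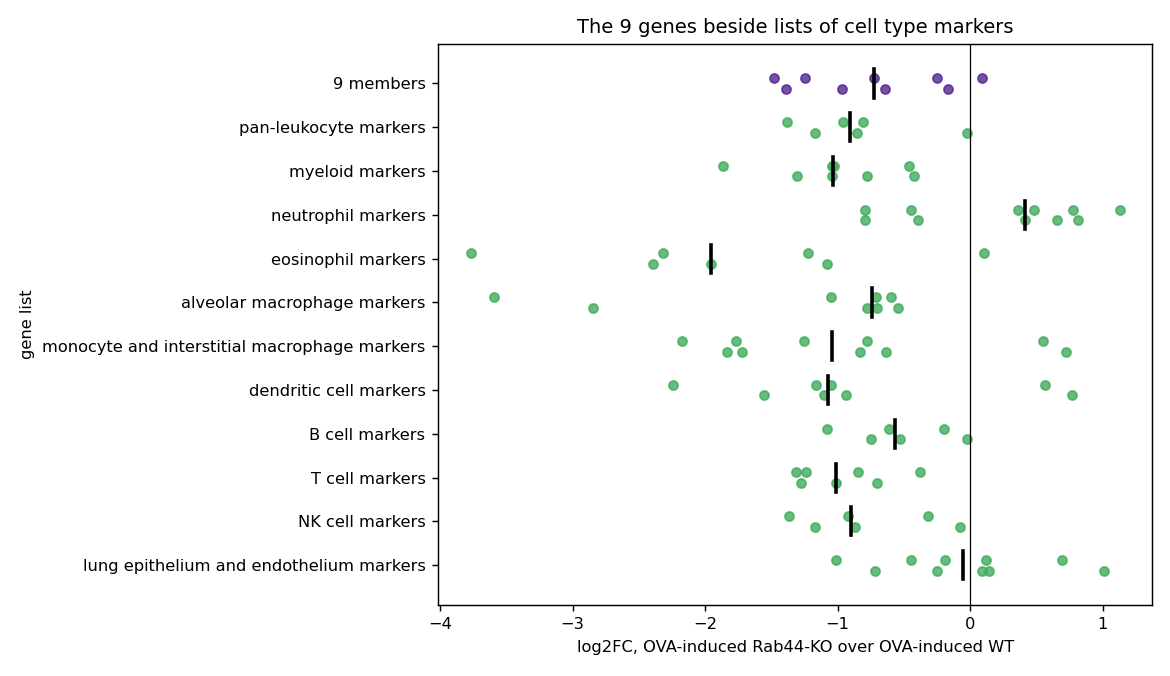
The log2FC of OVA Rab44-KO over OVA WT for the 9 genes and for genes of 11 marker lists that reached at least 10 counts. Each point is a gene and each black line the median of its list. The neutrophil list has a median of 0.41, the 9 genes -0.72 and the eosinophil list -1.95, and the median of the lung list (-0.05) turns positive with TPM and with the length trend removed.

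The pan-leukocyte list did not give a single reference. Its median was -0.90, or -0.58 with TPM, and 5 of its 6 genes lay between -1.38 and -0.81, but Ptprc, which encodes CD45 on all leukocytes, had 5132 and 5078 counts in OVA WT and Rab44-KO, a log2FC of -0.02. Per Ptprc in TPM, Itgax was 0.764 (0.730 to 0.799) in OVA WT and 0.279 (0.261 to 0.298) in OVA Rab44-KO, below its normal values of 0.515 and 0.479. Itgam per Ptprc was 0.371 (0.350 to 0.393) and 0.401 (0.379 to 0.424) in the OVA-induced libraries, against 0.251 and 0.271 in the normal ones. Cybb per Ptprc was 0.966 (0.927 to 1.01) in OVA WT and 0.596 (0.567 to 0.625) in OVA Rab44-KO, where its interval touched those of the normal values, 0.667 (0.624 to 0.713) and 0.658 (0.616 to 0.702).

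The genes whose 4 levels were most like the median profile of the 9 were sought among 13899 genes with at least 100 counts, by the root mean square distance of log2 CPM centred on each gene's own mean over the 4 libraries. Among the nearest were Mpeg1, which encodes a pore-forming protein of macrophages (distance 0.039), Zc3h12d (0.041), Csf2rb2, a cytokine receptor chain (0.044), and Pglyrp1, a bactericidal granule protein (0.054). Mpeg1 had 3954, 3834, 11865 and 6966 counts in normal WT, normal Rab44-KO, OVA WT and OVA Rab44-KO lungs. Among the members themselves Cybb (0.059), Ncf1 (0.062) and Itgb2 (0.067) lay nearest to the median profile. Fcgr4 (0.43), Itgam (0.36), Fcgr1 (0.34) and Itgax (0.30) lay farthest from it.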

How the data were processed

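Directional libraries from lung RNA were sequenced by the authors, aligned to GRCm38 with HISAT2 and counted per gene with featureCounts. Tool versions, the strand setting and the treatment of multimapping reads are not given in the sources used here. Raw counts, all whole numbers, were deposited beside TPM. In 15583 genes the deposited TPM equalled the counts rescaled by a single gene length and a library factor. Between libraries TPM therefore shifts the log2FC of these genes together, apart from the pseudocount, and does not correct for length. DESeq2 is named in the submitters' processing notes. No column of their comparisons was used.

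Counts were scaled with edgeR 4.0.16 (TMM factors 0.973 to 1.02) in R 4.3.3, and log2FC took edgeR's CPM with a small prior count. Python 3.11.15, numpy 2.4.6, pandas 2.3.3, scipy 1.17.1 and matplotlib 3.10.9 were used for the rest. Intervals of TPM ratios are the counting intervals of the counts. Intervals of sums and of differences in OVA response use the delta method. No model was fitted: a comparison of 2 libraries has 0 residual degrees of freedom, and an additive fit over 4 libraries, which would leave 1, was not run. The steps were tested on simulated counts.

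Of 36990 genes matched to the GRCm38 RefSeq annotation, 2.13% have the start given in the deposited table, so positions are those of GENCODE M21, whose transcripts also gave the shared 100-base windows. Promoter sequences are from RefSeq on GRCm38.p6. The 9 genes, 19 gene lists and the naming rule were chosen with earlier results of these data known. The rule names all members, Rab44, every gene of the partner lists (other Fc receptors, integrin chains and oxidase subunits), the 3 genes with the largest difference between the OVA-induced libraries and at least 100 counts in each pathway list, up to 3 genes with most counts in a marker list, and the 5 genes most like the members. Of the genes this rule names, 2 are not reported here, and they were left out of the list counts and medians. Other marker genes were named after their values were seen. Alternatives were DESeq2 1.42.0 size factors, total counts, TMM on 2 libraries or without immunoglobulin genes, a prior count of 2, TPM with a pseudocount of 0.1, thinned counts, count minimums of 1 and 50, removal of a running median along length, a 4-fold limit and intervals wholly beyond 2-fold.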

Additional observations from a re-analysis of the deposited data

Results flagged for a closer look

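For 3 of the 9 genes the log2FC of Rab44-KO over WT had opposite signs in normal and OVA-induced lungs, with counting intervals that left out 0 in both. These were Fcgr3 (0.33 in normal and -1.24 in OVA-induced lungs), Fcgr4 (0.77 and -0.25) and Cybb (0.14 and -0.72). With 1 library per group the difference between the conditions was not tested. For Fcgr4 the value in OVA-induced lungs changed sign with TPM (0.08) and with the length trend removed (0.20). Relative to the median of all genes it was -0.22 with CPM and -0.21 with TPM, with no change of sign. For Cybb the normal value was small.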

How the results depend on the processing

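Under the alternatives, 44 of 48 counts of members beyond 2-fold stayed within 1.5 times the reported count, 43 of 48 medians stayed within the counting interval of the member nearest the median, and 336 of 360 log2FC of single genes stayed within their own counting interval. Of the other 24, 2 turned from an interval that left out 0, both for Fcgr4. With TPM the median was 1.43 for OVA-induced over normal in WT, 0.91 in Rab44-KO and -0.40 for Rab44-KO over WT in OVA-induced lungs, and the median difference in OVA response was -0.63. That scale moved the median of all genes by -0.17, 0.12 and 0.33 in these comparisons. With the length trend removed the median difference in OVA response was -0.81. Fcgr4 turned from -0.25 to 0.080 and 0.20 between the OVA-induced libraries under these alternatives. A 4-fold limit left 3 members in WT, 0 in Rab44-KO and 0 between the OVA-induced libraries, and intervals wholly beyond 2-fold left 1 in Rab44-KO, by construction of the stricter rules. Over all genes the counts beyond 2-fold were 2699 and 1963 for OVA-induced over normal in WT and Rab44-KO, and 893 and 3030 for Rab44-KO over WT in normal and OVA-induced lungs. In the same order they were 7544, 7073, 5589 and 7956 with a minimum of 1 count, 1350, 763, 101 and 1545 with a minimum of 50, 864, 500, 180 and 763 beyond 4-fold, and 1014, 512, 70 and 944 with intervals wholly beyond 2-fold.

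No paired analysis was possible because each group has 1 library, and for the same reason leaving out a replicate was not possible. Fcgr1 and Fcgr4, with 70 to 192 and 72 to 363 counts, have the widest counting intervals of the 9 genes. Differences between mice of a group cannot be told apart from those between groups.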
